A study of Mus musculus with 14 samples.

Results

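KLF transcription factors are described here through 10 of their genes, Klf2, Klf3, Klf4, Klf5, Klf6, Klf7, Klf9, Klf10, Klf13 and Klf15, among 22835 gene symbols in the files. The members were listed by name. Where a symbol has several transcripts, the one of highest mean level over the 14 libraries was kept, and each of these 10 genes has 1 transcript in the files. RNA sequencing followed adipogenesis in 2 mouse preadipocyte lines and, beside them, brown adipose tissue. The brown line was made from interscapular brown fat of newborn pups with floxed Pparg alleles, written Pparg f/f, and was immortalized with SV40T. All 6 brown libraries share these alleles. No Cre recombinase is named, so no deletion of Pparg is labelled. 3T3-L1 is labelled as an immortalized white preadipocyte line. Confluent cells of each line were sequenced at 0h. Induced cells were taken at 1h, 2h and 4h and on day 2 and day 7, with 1 library per line and time. The induction mix held 0.02 µM insulin, 1 nM of the thyroid hormone T3, 0.5 mM IBMX (a phosphodiesterase inhibitor that raises cAMP), 1 µM dexamethasone (a synthetic glucocorticoid) and 0.125 mM indomethacin. Adult and embryo brown adipose tissue have 1 library each, with no exact age in the labels. The strain is given as C57BL/6J for all 14 libraries, 3T3-L1 included, and the growth text on the brown line is attached to every sample. The brown day 2 and day 7 libraries are marked in the labels as repeats of samples of another series.

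Krüppel-like factors are zinc finger proteins that bind GC-rich and CACC-rich DNA, and they activate or repress genes according to the cofactors they recruit. In mouse preadipocytes some of them are known to promote the adipocyte program and others to restrain it. They act beside the C/EBP factors and PPARγ, the receptor that directs adipocyte differentiation.

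The sequences upstream of the start site are shown for the 5 members that hold TGACG, the core of the cAMP response element, because IBMX is in the induction mix. RefSeq promoters of the GRCm38.p6 assembly matched 8 of the 10 members, all but Klf5 and Klf10. Each sequence below is the 250 bases before the annotated start, in the direction of the gene, with TGACG or its reverse complement CGTCA in capitals. The windows are chr8:72318812-72319061 (+ strand) for Klf2, chr4:55532476-55532725 (- strand) for Klf4, chr19:23140976-23141225 (+ strand) for Klf9, chr7:63938916-63939165 (- strand) for Klf13 and chr6:90462326-90462575 (+ strand) for Klf15.
Klf2: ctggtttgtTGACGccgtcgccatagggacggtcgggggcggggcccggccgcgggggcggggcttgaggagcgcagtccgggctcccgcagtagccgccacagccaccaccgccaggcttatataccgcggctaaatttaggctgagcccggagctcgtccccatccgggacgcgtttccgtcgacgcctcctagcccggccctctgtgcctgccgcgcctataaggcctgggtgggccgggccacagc
Klf4: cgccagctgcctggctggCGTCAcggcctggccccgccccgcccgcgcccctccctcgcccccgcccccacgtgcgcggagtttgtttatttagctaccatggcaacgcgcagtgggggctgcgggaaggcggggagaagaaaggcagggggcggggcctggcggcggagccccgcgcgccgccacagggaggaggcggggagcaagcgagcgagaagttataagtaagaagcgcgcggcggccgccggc
Klf9: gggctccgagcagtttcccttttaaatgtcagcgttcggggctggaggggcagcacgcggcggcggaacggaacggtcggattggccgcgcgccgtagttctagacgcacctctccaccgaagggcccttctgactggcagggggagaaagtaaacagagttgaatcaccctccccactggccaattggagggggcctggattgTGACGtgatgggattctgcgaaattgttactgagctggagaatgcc
Klf13: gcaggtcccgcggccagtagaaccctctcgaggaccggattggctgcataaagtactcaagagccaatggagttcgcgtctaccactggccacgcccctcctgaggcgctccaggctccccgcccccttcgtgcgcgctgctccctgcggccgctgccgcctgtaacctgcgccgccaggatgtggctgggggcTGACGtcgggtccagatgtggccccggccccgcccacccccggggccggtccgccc
Klf15: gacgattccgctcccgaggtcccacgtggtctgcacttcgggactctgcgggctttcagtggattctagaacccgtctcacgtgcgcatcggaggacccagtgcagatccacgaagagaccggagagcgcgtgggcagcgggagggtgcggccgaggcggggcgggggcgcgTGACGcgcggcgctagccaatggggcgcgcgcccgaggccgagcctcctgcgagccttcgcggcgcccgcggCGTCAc

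This core was present on either strand in 5 of 8 member windows and in 17.8% of the 32851 windows of the same length. The full palindrome TGACGTCA was in 0 of 8 member windows and in 1.55% of all. GGGCGG, the GC box that SP and KLF proteins bind, was in 7 member windows, all but Klf9, and in 32.7% of all. CACCC was in 6 member windows and in 52.0% of all. The member windows were 59.2% to 78.4% G and C, against a median of 52.4% over all windows, and GC-rich letters are met more often in such windows. The short sites AGAACA and AGGTCA, of the glucocorticoid receptor and of nuclear receptors such as those of thyroid hormone, were in 0 of 8 member windows, and in 16.1% and 14.02% of all. TGANTCA, the AP-1 site, was in the Klf9 window and in 6.75% of all. A match is a run of letters and not a measured binding site.

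Values are RPKM, reads divided by transcript length and library size, so levels of different genes can be set side by side on this scale. The 12 culture libraries held 39.5 to 80.9 M reads (M, mega) by the step size of their lowest values, and the adult and embryo libraries 5.35 and 18.8 M reads. With 1 library in each group, the test used limma on log2(RPKM + 1) with time and line as terms, and the 2 lines were the replicates of a time (n = 2). A call needed a Benjamini-Hochberg adjusted p under 0.05 over the 12427 genes tested. Nothing in the labels says that cultures were repeated. With the line term, p-values weigh a change against how differently the courses of these 2 lines ran, and not against a spread of repeated cultures. All 10 members were tested. Klf15 reached the 1 RPKM that the filter asks for in the brown line from 2h on and in 3T3-L1 from day 2 on. Within a line and between the tissues there was no test, and a gene was counted when it differed 2-fold or more and its higher RPKM was at least 2. The lines were checked by their adipocyte genes. Adipoq, the adiponectin gene, was at 601 RPKM in the brown line and 4622 RPKM in 3T3-L1 at day 7, against 0.03 and 0.14 RPKM at 0h. Ucp1, the brown fat uncoupling protein, was at 1.07 RPKM in the brown line at day 7, against 1015 RPKM in adult and 1194 RPKM in embryo tissue, so the brown label of the line is not borne out by Ucp1 at this time. The 7 brown adipocyte markers summed to 18.7 RPKM in the brown line and 38.6 RPKM in 3T3-L1 at day 7, against 3213 RPKM in adult and 5504 RPKM in embryo tissue. Cox8b, a cytochrome oxidase subunit of brown fat, made up most of the 3T3-L1 sum. It was at 2.63 RPKM in the brown line and 32.5 RPKM in 3T3-L1 at day 7. Of the 7 markers it was the 1 that was higher in 3T3-L1 at that time. Cidea was at 6.65 RPKM in the brown line and 2.98 RPKM in 3T3-L1, Ppargc1a at 4.77 and 2.55 RPKM. Elovl3 was at 1.61 and 0.56 RPKM, Dio2 at 0.03 and 0.01 RPKM, and Ucp1 was listed at 0 in 3T3-L1. Prdm16, a brown fat determination factor, was at 0.41 to 1.95 RPKM in the brown line and listed at 0 in all 6 libraries of 3T3-L1. The day 2 and day 7 culture files have headers of another form than the earlier ones, so a batch of late libraries cannot be told apart from late time.

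**Figure D1:**
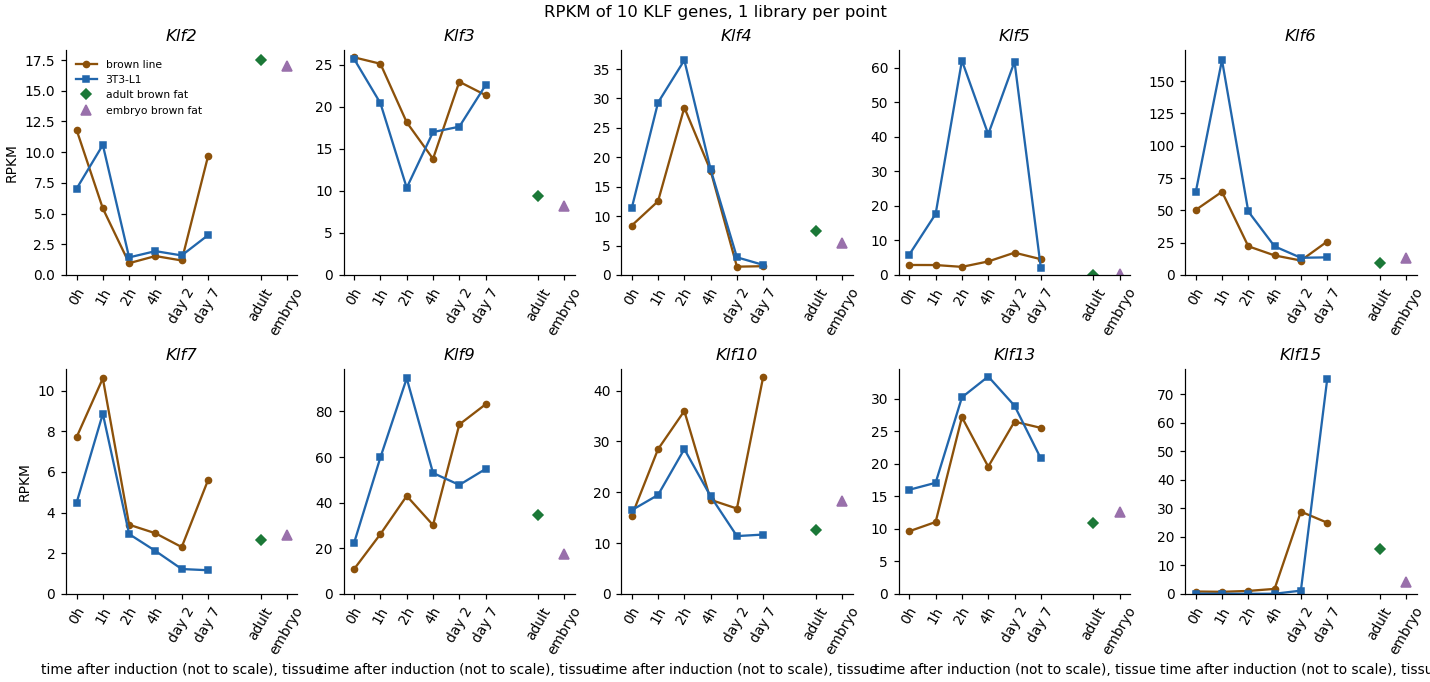
RPKM (y axes, linear, from 0) of the 10 KLF genes against time after induction (x axes, not to scale) in the brown line (brown circles) and 3T3-L1 (blue squares), with adult (green diamonds) and embryo (purple triangles) brown fat at the right. Each point is 1 library. Klf4 peaked at 2h in both lines, Klf5 reached 62.0 RPKM in 3T3-L1 alone, and Klf15 reached 24.96 RPKM in the brown line and 75.2 RPKM in 3T3-L1 at day 7.

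Klf4, a pluripotency factor that in 3T3-L1 is known to act with Krox20 upstream of Cebpb early in adipogenesis, had a short rise followed by a deep fall. In the brown line it was at 8.40, 12.5, 28.5, 17.7, 1.41 and 1.49 RPKM from 0h to day 7. In 3T3-L1 it was at 11.4, 29.3, 36.5, 18.0, 3.00 and 1.71 RPKM over the same times. Both lines were highest at 2h and at their 2 lowest values on the late days, and no late value overlapped an early one. The fitted log2 difference at 2h was 1.62 ± 0.27 (SE, limma, adjusted p = 0.0426). Klf4 was the 1 member of 10 past the threshold at 2h, where 1.42% of all tested genes were called. That call ended without any 1 of 9 libraries, the exceptions being brown day 2 and day 7 and 3T3-L1 day 7. Its fall at day 2 was -1.80 ± 0.27 (adjusted p = 0.00508) and at day 7 was -2.05 ± 0.27 (adjusted p = 0.00112). The day 7 call held when each of the 12 libraries was left out, and the day 2 call ended without brown 0h alone.

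Klf2, a factor known to restrain adipogenesis and to mark endothelial cells, was lowest from 2h to day 2. It was at 11.8, 5.42, 0.96, 1.54, 1.18 and 9.66 RPKM in the brown line from 0h to day 7. In 3T3-L1 it was at 7.02, 10.6, 1.43, 1.94, 1.59 and 3.24 RPKM. At 1h the lines went apart, with a level 0.458 times that of 0h in the brown line and 1.51 times in 3T3-L1. At 2h the brown line held 0.0811 of its 0h level and 3T3-L1 held 0.204. The fitted log2 difference of -2.22 ± 0.47 at 2h had an adjusted p of 0.0624 (limma). At day 2 Klf2 fell by 2.09 ± 0.47 on the log2 scale (adjusted p = 0.0226), and this call ended without the 0h or day 2 library of either line. By day 7 the brown library was back at 0.817 of its 0h level, against 0.462 in 3T3-L1, and the fitted difference of -0.59 ± 0.47 missed the threshold (adjusted p = 0.340).

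Klf6, an immediate early gene that is known to repress Dlk1 in preadipocytes, was the most abundant member before induction and at 1h. In the brown line it was at 50.3, 64.4, 22.2, 15.1, 11.2 and 25.9 RPKM from 0h to day 7. In 3T3-L1 it was at 64.0, 166.3, 49.2, 22.1, 13.3 and 13.6 RPKM. The 1h level was 1.28 times that of 0h in the brown line and 2.60 times in 3T3-L1. Klf6 fell at day 2 by 2.13 ± 0.46 (adjusted p = 0.0200) and at day 7 by 1.54 ± 0.46 on the log2 scale (adjusted p = 0.0314). The day 2 call ended without the 0h or day 2 library of either line. The day 7 call ended without the 0h or 4h library of either line and without 3T3-L1 day 7, and the fitted fall ranged from 0.75 to 2.34 over the fits that left out 1 library. Klf7, known to inhibit adipogenesis when forced on in preadipocytes, had a like course at a lower level. It was at 7.70, 10.6, 3.40, 2.98, 2.30 and 5.59 RPKM in the brown line and at 4.47, 8.86, 2.94, 2.11, 1.22 and 1.16 RPKM in 3T3-L1. Both lines peaked at 1h. Klf7 fell at day 2 by 1.35 ± 0.33 (limma, adjusted p = 0.0299), a call that ended without the 0h, 4h or day 2 library of either line, and at day 7 the fitted difference of -0.87 had an adjusted p of 0.0690. The correlation of Klf6 and Klf7 over the 12 culture libraries, which share lines and times, was 0.81 on log2(RPKM + 1).

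Klf9, a member known to be induced by glucocorticoids and by thyroid hormone and to bind the Pparg promoter in adipocytes, was higher than at 0h in every later culture library. In the brown line it was at 10.9, 26.2, 43.0, 30.2, 74.3 and 83.2 RPKM from 0h to day 7. In 3T3-L1 it was at 22.4, 59.9, 94.6, 53.0, 47.8 and 54.8 RPKM. Both lines were higher at 2h than at 1h and lower at 4h than at 2h, but the brown line was highest at day 7 and 3T3-L1 at 2h. The fitted log2 difference was 1.29 ± 0.50 at 1h (adjusted p = 1) and 1.96 ± 0.50 at 2h (adjusted p = 0.0930). Klf9 rose at day 2 by 1.86 ± 0.50 (adjusted p = 0.0400) and at day 7 by 2.04 ± 0.50 (adjusted p = 0.0144). At day 2 it stayed past the threshold in 3 of the 12 fits without 1 library, those without 3T3-L1 day 2, 3T3-L1 day 7 or brown day 7. At day 7 the call ended without brown 0h or brown day 7.

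Klf13, close kin of Klf9, was above its 0h level from 2h on by smaller folds than Klf9. It was at 9.63, 11.1, 27.2, 19.6, 26.5 and 25.5 RPKM in the brown line and at 16.0, 17.1, 30.2, 33.4, 28.9 and 20.8 RPKM in 3T3-L1. The 1h values of Klf13 stood near those of 0h in both lines, unlike those of Klf9. Every Klf13 value from 2h on was above both 0h values. The fitted log2 difference was 1.14 ± 0.25 at 2h (adjusted p = 0.0680). It rose at day 2 by 1.09 ± 0.25 (adjusted p = 0.0250) and at day 7 by 0.84 ± 0.25 (adjusted p = 0.0319). The day 2 call ended without the 0h or day 2 library of either line, and the day 7 call without the 0h or 2h library of either line or without brown day 7. The correlation of Klf9 and Klf13 over the 12 libraries was 0.80.

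Klf15, known to be induced by glucocorticoids and to drive the glucose transporter gene Slc2a4 in adipocytes, was the late member. It was at 0.81, 0.70, 1.02, 1.73, 28.8 and 24.96 RPKM in the brown line from 0h to day 7. In 3T3-L1 it was at 0.04, 0.03, 0.01, 0.02, 1.12 and 75.2 RPKM. The brown line was thus near its late level by day 2, when 3T3-L1 stood at 1.12 RPKM, and 3T3-L1 was the higher line at day 7. The 3T3-L1 values up to 4h rest on 5, 4, 1 and 2 reads, against 101 reads at day 2 and 8659 at day 7. The brown line had 64 to 171 reads up to 4h. Klf15 rose at day 7 by 5.02 ± 0.99 on the log2 scale (adjusted p = 0.00615), and this held when each of the 12 libraries was left out, with adjusted p up to 0.0460. At day 2 the difference of 2.54 ± 0.99 did not pass (adjusted p = 0.121).

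Klf5, which is known to link the early C/EBP factors to Pparg in 3T3-L1, had unlike courses in the lines. It was at 2.89, 2.87, 2.34, 3.91, 6.45 and 4.57 RPKM in the brown line from 0h to day 7. In 3T3-L1 it was at 5.92, 17.7, 62.0, 40.7, 61.7 and 2.12 RPKM. The brown library was the lower one at each time from 0h to day 2, and at day 7 it was the higher one. In 3T3-L1 the 2h level was 10.5 times that of 0h and the day 2 level 10.4 times. No time passed the threshold for Klf5, and the SE of its fitted differences was 1.05, the widest of the 10 members.

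Klf3, known in mouse to repress Cebpa and to restrain adipogenesis, was close to its 0h level again by day 7. It was at 25.9, 25.1, 18.1, 13.8, 23.0 and 21.4 RPKM in the brown line and at 25.7, 20.4, 10.4, 17.0, 17.6 and 22.6 RPKM in 3T3-L1. Both lines started at nearly the same level and dipped, at 4h in the brown line and at 2h in 3T3-L1. Klf10, an early gene induced by TGF-beta, was at 15.4, 28.5, 36.0, 18.5, 16.8 and 42.8 RPKM in the brown line and at 16.5, 19.5, 28.5, 19.2, 11.4 and 11.7 RPKM in 3T3-L1. It had a peak at 2h in both lines and a second, higher value at day 7 in the brown line, where 3T3-L1 was near its lowest level. Neither Klf3 nor Klf10 passed the threshold at any time, with fitted log2 differences at 2h of -0.86 ± 0.24 (adjusted p = 0.110) for Klf3 and 0.97 ± 0.41 (adjusted p = 0.255) for Klf10.

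**Figure D2:**
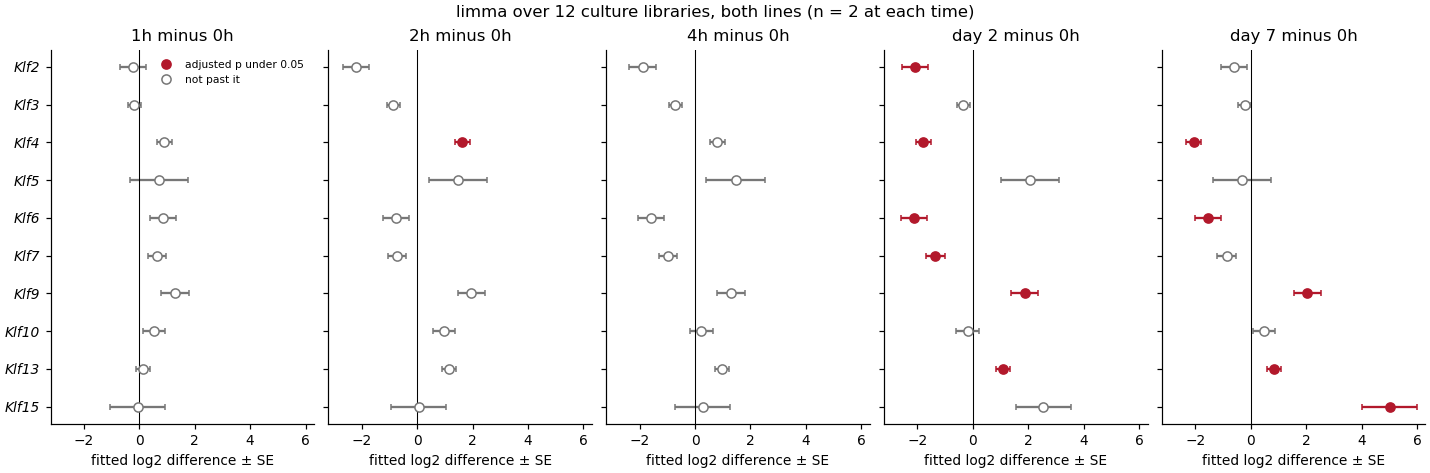
Fitted log2 difference of log2(RPKM + 1) from 0h (x axes, points, with bars of 1 SE) for the 10 KLF genes (rows) at each of 5 times, from limma over 12 culture libraries with n = 2 lines at each time. Filled red points had an adjusted p under 0.05: none at 1h and 4h, Klf4 at 2h, 6 members at day 2 and 5 at day 7.

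Counted over the members, limma called 0 of 10 at 1h, where 0.0402% of all tested genes were called, and 0 of 10 at 4h, where 2.39% were. At an unadjusted p under 0.05, 2 of 10 members passed at 1h and 7 of 10 at 4h. Of all 12427 tested genes, 321 passed that level at 1h and 2677 at 4h. At day 2 it called 6 of 10, where 17.7% of all genes were called: Klf9 and Klf13 rose, and Klf2, Klf4, Klf6 and Klf7 fell. At day 7 it called 5 of 10, against 40.7% of all genes, a share near the background: Klf9, Klf13 and Klf15 rose, and Klf4 and Klf6 fell. The median fitted log2 difference of the members was 0.59 at 1h, 0.51 at 2h, 0.26 at 4h, -0.26 at day 2 and -0.27 at day 7. Over all tested genes it was -0.07, -0.17, -0.13, -0.06 and -0.19 at the same times. The late member medians rested on single libraries. At day 7 the median was 0.69 without 3T3-L1 day 7, -0.82 without brown day 7 and -0.10 after median-of-ratios scaling. At day 2 it was -0.04 without 3T3-L1 0h and -0.49 without brown 0h.

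The early calls depended on whether the day 2 and day 7 libraries were in the fit. With the 0h to 4h libraries alone, 1 of 10 members was called at 1h against 0.353% of all genes, 7 of 10 at 2h against 19%, and 5 of 10 at 4h against 29.7%. Klf9 then rose at 1h (adjusted p = 0.0141), at 2h (adjusted p = 0.00120) and at 4h (adjusted p = 0.00183). Klf13 rose at 2h (adjusted p = 0.00893) and at 4h (adjusted p = 0.00810). Klf4 rose at 2h (adjusted p = 0.0119), as did Klf10 (adjusted p = 0.0157). Klf2 fell at 2h (adjusted p = 0.0105) and at 4h (adjusted p = 0.0104), and Klf7 fell at 2h (adjusted p = 0.0229) and at 4h (adjusted p = 0.00781). Klf6 fell at 4h (adjusted p = 0.00802). Klf3 fell at 2h (adjusted p = 0.0450), and with libraries also scaled by the median of ratios Klf3 and Klf7 were no longer called at 2h (adjusted p = 0.139 and 0.0786), and Klf4 was called at 4h as a rise (adjusted p = 0.0306). Without that scaling, fitted differences were the same as in the fit of all 12 libraries, since each time is paired within the lines, and only the spread changed. With it the differences moved too: Klf3 at 2h from -0.86 to -0.63, Klf7 at 2h from -0.73 to -0.53 and Klf4 at 4h from 0.81 to 0.95.

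The next counts are over members that reached 2 RPKM, all but Klf15 at 1h to 4h in both lines and at day 2 in 3T3-L1. Within the brown line, 2 of 9 members differed 2-fold or more from 0h at 1h, where 1.3% of all genes at 2 RPKM or more did so, 7 of 9 at 2h against 5.74%, 6 of 9 at 4h against 7.13%, 8 of 10 at day 2 against 23.5% and 5 of 10 at day 7 against 36.1%. Within 3T3-L1 the counts were 4 of 9 at 1h against 2.19%, 5 of 9 at 2h against 12.1%, 6 of 9 at 4h against 17.4%, 6 of 9 at day 2 against 21.5% and 7 of 10 at day 7 against 36.5%. Klf9 was 2-fold or more higher at all 5 later times in both lines. Klf2 was 2-fold or more lower at 1h, 2h, 4h and day 2 in the brown line and at 2h, 4h, day 2 and day 7 in 3T3-L1.

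The summed RPKM of the 10 genes was 144, 187, 183, 125, 192 and 245 RPKM in the brown line and 173, 350, 316, 208, 188 and 207 RPKM in 3T3-L1 from 0h to day 7. Klf6 led at 0h and 1h in both lines, and Klf9 led at 2h and 4h in both. At day 2 and day 7 Klf9 still led in the brown line, while 3T3-L1 was led by Klf5 at day 2 and by Klf15 at day 7.

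**Figure D3:**
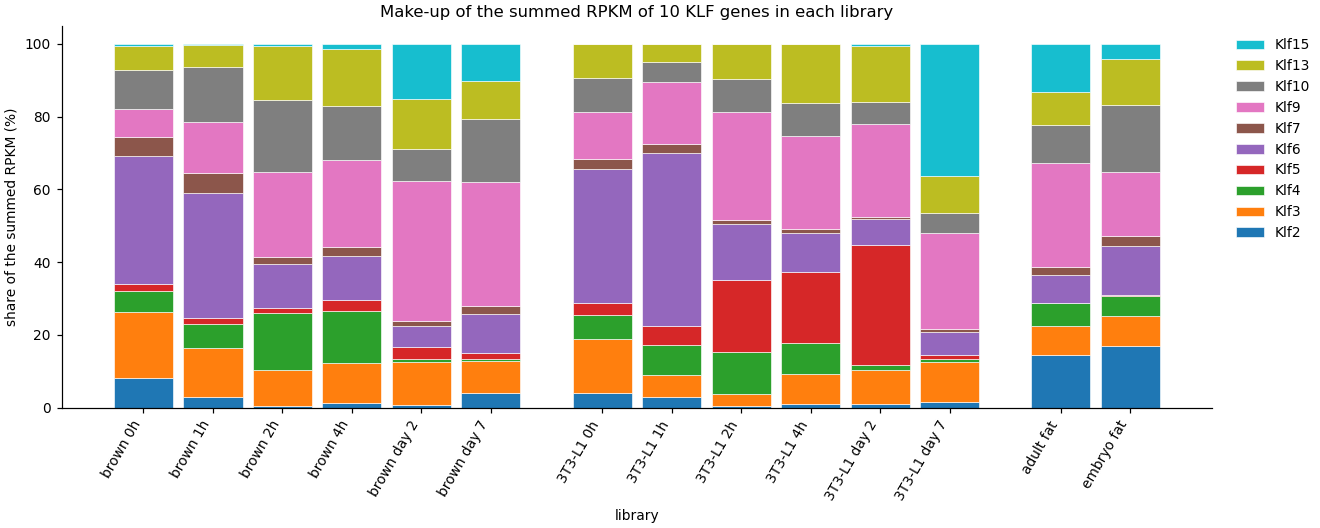
Share of each KLF gene in the summed RPKM of the 10 genes (y axis, %), 1 stacked bar per library, with the brown line at the left, 3T3-L1 in the middle and the tissues at the right. Klf6 (purple) leads at 0h and 1h in both lines, Klf5 (red) is wide from 2h to day 2 in 3T3-L1, and Klf15 (cyan) is wide in 3T3-L1 at day 7.

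The lines were compared by the mean difference over the 6 times, in the same fit. The 6 times of a line are not independent cultures by label, so this tests 1 cell line against another. Of 10 members 3 were called, below the 49.9% called among all genes. Klf5 was lower in the brown line by a fitted log2 difference of -2.11 ± 0.61 (adjusted p = 0.0224). Klf4 was lower by -0.46 ± 0.15 (adjusted p = 0.0384), with the brown library lower at all 6 times. Klf7 was higher by 0.60 ± 0.19 (adjusted p = 0.0320), with the brown library higher at all 6 times. The Klf5 difference was carried by 1h to day 2: 3T3-L1 over brown was 6.15 at 1h, 26.5 at 2h, 10.4 at 4h and 9.57 at day 2, and brown over 3T3-L1 was 2.16 at day 7. Each of these calls ended in some of the 12 fits without 1 library. The Klf4 and Klf5 calls each remained in 4 of the 12 fits, with adjusted p up to 0.0890 and 0.0680, and the Klf7 call in 6, with adjusted p up to 0.0786. With libraries scaled by the median of ratios the Klf7 difference was 0.51 (adjusted p = 0.0545).

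In the 0h to 4h libraries alone, 7 of 10 members differed between the lines, against 66.5% of all genes. Klf9 was lower in the brown line there (-1.01 ± 0.08, adjusted p = 6.94e-05), as were Klf6 (-0.83 ± 0.17, adjusted p = 0.00506) and Klf13 (-0.54 ± 0.11, adjusted p = 0.00441). Klf15 was among the 7, but it reached 1 RPKM in these libraries in brown 2h and 4h alone, and its 3T3-L1 values rest on 1 to 5 reads, so its fitted difference is not read as a result. For Klf9 the order then turned on the late days, when the brown library was 1.56 times 3T3-L1 at day 2 and 1.52 times at day 7. Klf10 at day 7 was 3.66 times higher in the brown library, and Klf7 was 4.82 times higher.

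**Figure D4:**
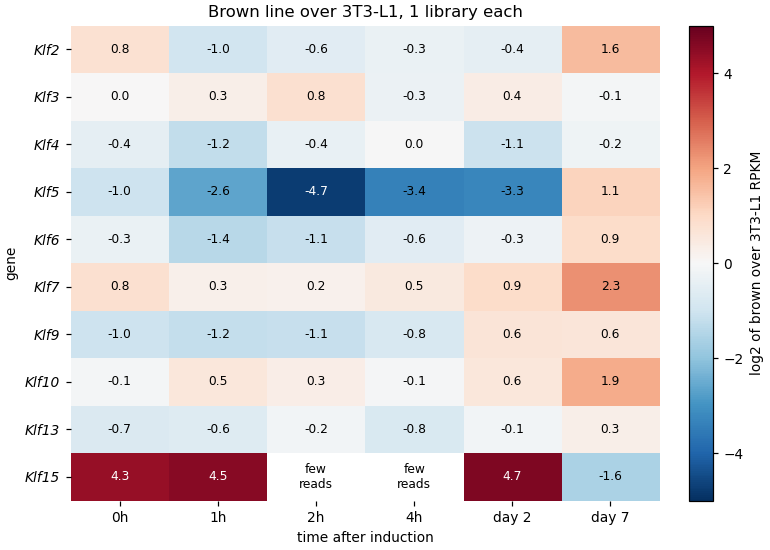
log2 of the RPKM in the brown line over that in 3T3-L1 (colour and printed numbers) for the 10 KLF genes (rows) at 6 times (columns), 1 library each. Red is higher in the brown line and blue is lower; 2 cells of Klf15 are blank because 3T3-L1 had 2 reads or fewer there. Klf5 is blue from 0h to day 2 and red at day 7, and Klf15 goes the other way.

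In brown adipose tissue the 10 genes summed to 120 RPKM in adult and 99.9 RPKM in embryo tissue. Klf9 led in the adult at 34.5 RPKM, followed by Klf2 at 17.5 and Klf15 at 15.8 RPKM, whose counting intervals overlapped. In the embryo Klf10 at 18.3, Klf9 at 17.6 and Klf2 at 17.0 RPKM stood close together, and their counting intervals overlapped. Klf15 had 15.8 RPKM in adult tissue (194 reads) and 4.25 RPKM in embryo tissue (183 reads), a ratio of 3.72 (95% exact Poisson interval 3.02 to 4.58). It was the 1 member that differed 2-fold or more, of the 9 that reached 2 RPKM, where 40.1% of all genes at 2 RPKM or more did. The Klf9 ratio of 1.96 (1.77 to 2.16) lay just under 2-fold. Klf10 and Klf6 were lower in the adult on the deposited scale, with ratios of 0.686 (0.587 to 0.797) and 0.691 (0.593 to 0.803). Klf13 was also lower there, at 0.871 (0.776 to 0.977), and Klf4 was higher, at 1.38 (1.11 to 1.70). The interval for Klf2 (0.862 to 1.22), at a ratio of 1.03, spanned equality. These intervals cover counting error and not the spread between animals, which 1 library per tissue cannot give. Scaled by the median of ratios, every adult over embryo ratio was 1.49 times larger. Klf15 at 5.54, Klf9 at 2.91 and Klf4 at 2.05 were then 2-fold or more higher in the adult. Of all 10586 genes at 2 RPKM or more on that scale, 1341 were 2-fold or more higher in the adult and 1582 lower. Klf6 at 1.03, Klf10 at 1.02 and Klf13 at 1.30 were then no longer lower in the adult. Over all genes, 15.2% of those that differed 2-fold were higher in the adult on the deposited scale, and 45.9% after that scaling.

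Klf5 had 0 reads in adult tissue, where 3 reads would be 0.325 RPKM, and 10 reads or 0.309 RPKM in embryo tissue. Both tissues were below the lowest culture value of Klf5, 2.12 RPKM. Klf2 was higher in both tissues than in any culture library, whose highest value was 11.8 RPKM. Klf3, at 9.37 RPKM in adult and 8.17 RPKM in embryo tissue, stood below its lowest culture value of 10.4 RPKM. The adult counting interval of 7.74 to 11.2 RPKM took in that value, however. Tissue libraries were not scaled to the culture libraries. In bulk tissue, fewer cells of a type and less RNA per cell cannot be told apart. All 7 endothelial markers were present in the tissues, at 8.94 to 51.4 RPKM in adult and 13.4 to 116 RPKM in embryo tissue, summing to 166 and 410 RPKM. In culture the same 7 markers summed to 0.83 RPKM or less in every library. Skeletal muscle markers summed to 1275 RPKM in adult and 393 RPKM in embryo tissue, with Ckm, the muscle creatine kinase, at 237 and 64.3 RPKM. Erythroid markers summed to 124 RPKM in adult and 1633 RPKM in embryo tissue. The part of these cells in the tissue levels of Klf2, Klf15 and the other members was not tested.

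**Figure D5:**
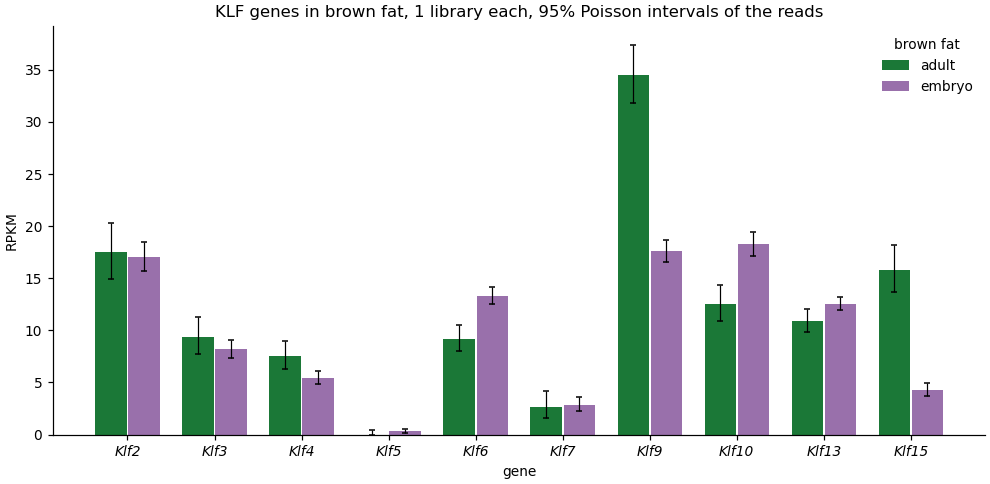
RPKM (y axis, linear) of the 10 KLF genes in adult (green, left) and embryo (purple, right) brown fat, 1 library each. Bars start at 0 and error bars are 95% exact Poisson intervals of the read counts. On this deposited scale Klf4, Klf9 and Klf15 are higher in the adult and Klf6, Klf10 and Klf13 lower. After median-of-ratios scaling the ratios of Klf6, Klf10 and Klf13 are 1.03, 1.02 and 1.30. Klf5 has 0 reads in the adult.

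Genes tied to the KLFs were counted by list. Of 6 genes listed as metabolic targets of KLF15, 5 were tested and were called as rises at day 7, where 40.7% of all tested genes were called. Prodh passed the filter through the day 7 libraries alone and Slc2a4 through the day 2 and day 7 libraries alone, so their calls there follow in part from the filter, and nothing is read from the count. Slc2a4, the insulin-responsive glucose transporter, was at 0.13, 0.16, 0.06, 0.19, 5.72 and 51.9 RPKM in the brown line and at 0, 0.01, 0.01, 0.01, 1.30 and 67.1 RPKM in 3T3-L1. Gpt, an alanine aminotransferase, rose by 4.17 ± 0.63 at day 7 (adjusted p = 0.00208), and Bcat2, a branched-chain aminotransferase, by 2.81 ± 0.76 (adjusted p = 0.0220). In the brown line, where Klf15 was at 28.8 RPKM at day 2, Slc2a4 was then at 5.72 RPKM.

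Of 6 glucocorticoid-induced genes, 4 rose at 4h, where 2.39% of all tested genes were called, and 5 at day 2, where 17.7% were, with median log2 differences of 2.22 and 2.63. Over all tested genes these medians were -0.13 and -0.06. Glul, glutamine synthetase, rose most at 4h (2.40 ± 0.43, adjusted p = 0.0363). Fkbp5, a chaperone of the glucocorticoid receptor, rose at 4h (2.36 ± 0.39, adjusted p = 0.0317), and Tsc22d3, an anti-inflammatory glucocorticoid target, rose beside it (2.27 ± 0.31, adjusted p = 0.0217). Among 9 adipogenic factors tied to KLFs, Cebpb rose at 2h (2.37 ± 0.42, adjusted p = 0.0460), with Cebpd (2.63 ± 0.34, adjusted p = 0.0268). Cebpa, the late C/EBP factor, rose at day 2 (4.73 ± 0.39, adjusted p = 0.000702), with Pparg (2.12 ± 0.17, adjusted p = 0.000702). Of 15 KLF cofactors, 4 fell and 1 rose at day 7, a share below the 40.7% of all tested genes called. Kat2b, an acetyltransferase that binds KLF proteins, was the one that rose (1.33 ± 0.15, adjusted p = 0.000704), and Sin3b, a scaffold of histone deacetylases, fell most (-1.001 ± 0.13, adjusted p = 0.00107). Of 9 tested genes listed as upstream regulators, 1 fell at 4h, and 2 rose and 2 fell at day 7, a share near the 40.7% of all tested genes called. Nr3c1, the glucocorticoid receptor, was the one that fell at 4h (-1.30 ± 0.16, adjusted p = 0.0160) and was among those that rose at day 7 (0.75 ± 0.16, adjusted p = 0.00832). The 4h calls of these listed genes ended without the 0h or 4h library of either line. The 2h calls of Cebpb and Cebpd ended at least in the fits without 3T3-L1 0h and without brown 2h. Whether they held in the other fits without 1 library is not given here.

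The genes whose course over the 12 culture libraries was most like that of each member were found among 10346 other genes that reached 5 RPKM, by Pearson's r on log2(RPKM + 1). The libraries share lines and times, so r describes these courses only. For Klf4 they were Dusp5 (r = 0.97), Rnf217 (0.97) and Smad7 (0.96). Klf15 was most like Pxmp2 (0.98), Reep6 (0.98) and Prlr (0.98). For Klf5 they were Dnmbp (0.95), Slpi (0.94) and Esyt2 (0.92), and for Klf6 Edn1 (0.96), Fos (0.92) and Lrrn4cl (0.92). Klf9 and Klf13 shared 4930523C07Rik as the most alike gene (r = 0.89 and 0.91). The highest r was lower for Klf2 (Rela, 0.89), Klf7 (Mllt4, 0.89), Klf3 (Chst1, 0.87) and Klf10 (Pim1, 0.83). Among the members themselves, the most opposite pair was Klf4 and Klf15, at -0.83.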

How the data were processed

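Messenger RNA of 14 mouse samples was sequenced, 1 library per group, and groups came from sample titles. Per the file headers and names, culture values are RPKM computed by the authors and rounded to 2 decimals. For the tissues the authors deposited a read count beside the RPKM of each transcript, per the file headers. The submitters' processing notes list CASAVA 1.8.2 and the build mm9 without saying what each was used for. The aligner is not given in the sources used here, nor is the counter or its strand setting. Overlapping and antisense genes may therefore share reads.

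Each file lists 29082 transcripts. Transcript lengths from the tissue files (count over RPKM) gave the read worth of low culture values, all within 0.25 of a whole read, and so depth. limma 3.58.1 (R 4.3.3, eBayes with trend) was fitted to log2(RPKM + 1), which understates changes of low genes, for genes with RPKM of at least 1 in at least 2 of 12 culture libraries. It was tested on simulated data. SciPy 1.17.1 gave exact Poisson intervals at 95%. The floor is 3 reads. Alternatives were a pseudocount of 0.1, no filter, median-of-ratios scaling, no line term, transcript sums, a least RPKM of 5, each library left out, and 0h to 4h alone. That last fit with scaling was added after seeing the data. The 10 members are always named. Up to 4 genes of other lists are named by largest fitted change, with the 3 genes of most alike course. Members and lists were chosen with earlier results of these data known. All 14 libraries were used.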

Additional observations from a re-analysis of the deposited data

Results flagged for a closer look

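2 results stand out because the lines moved in opposite directions from 0h by at least 0.5 on the log2 RPKM scale. The difference between the lines was not tested in either, since each value is 1 library over another. Klf2 at 1h had a log2 change of -1.13 in the brown line and 0.59 in 3T3-L1, which is brown minus 3T3-L1 of -1.72. Klf5 at day 7 had a log2 change of 0.66 in the brown line and -1.48 in 3T3-L1, a difference of 2.14. With the brown day 7 file styled and labelled apart from the early files, a late batch was not separated from time here.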

How the results depend on the processing

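The 31 member results followed here had an unadjusted p under 0.05 in the limma fit of all culture libraries. Klf2 at 1h and Klf5 at day 7, where the lines moved in opposite directions, are not among them. Whether results outside the 31 reversed is not given here. Over 560 alternative values of the 31 results no fitted difference reversed, which follows in part from this choice of results. Of these values, 283 leave-one-out and 147 other values kept direction and side of the threshold. Without a filter on low values, members called numbered 0 at 2h, 3 at day 2, 3 at day 7 and 1 between the lines. Of the 19823 genes then tested, 10 rose and 4 fell at 2h, and 616 rose and 1200 fell at day 2. At day 7, 1902 rose and 2885 fell, and 4503 were higher and 2398 lower in the brown line. Without a line term, members called numbered 0 at 2h, 0 at day 2 and 3 at day 7. Of all 12427 genes, 4 rose and 0 fell at 2h, and 115 rose and 260 fell at day 2. At day 7, 873 rose and 1186 fell in that fit. With the 0h to 4h libraries alone, members called numbered 1 at 1h, 7 at 2h, 5 at 4h and 7 between the lines. Of all genes, 0.353%, 19%, 29.7% and 66.5% were called there. With scaling added, members called numbered 1, 5, 6 and 6. Of the 11852 genes in the scaled fit, 22 rose and 0 fell at 1h, and 566 rose and 723 fell at 2h. At 4h, 1597 rose and 1884 fell, and 4055 were higher and 3997 lower in the brown line. Leaving out 1 library gave member medians of the fitted log2 difference of 0.12 to 0.55 at 2h, 0.01 to 0.51 at 4h and -0.49 to -0.04 at day 2. At day 7 these medians ran from -0.82 to 0.69, and between the lines from -0.32 to -0.06. Median-of-ratios scaling gave 3 members that differed 2-fold or more between the tissues, where 1341 of 10586 genes were higher and 1582 lower in the adult. In culture, the median log2 difference over all genes then stood at 0.01 at 2h, -0.01 at 4h and -0.03 at day 7, against -0.17, -0.13 and -0.19 as deposited. The cause of these shifts in counts was not tested. Leaving out 1 library at a time leaves 1 sample at that time, which is assumed to vary like the others. The line term pairs each time with 0h within a line; beyond it, replicate numbers carry no pairing, since each group has 1 library. Depth limits Klf15 in early 3T3-L1 and Klf5 in the tissues, each with 10 reads or fewer.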

Other observations

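Of 16 other KLF and SP genes, 8 were tested in culture. Klf16, a GC-box binding member, fell at day 7 (fitted log2 difference -0.97 ± 0.27, limma, adjusted p = 0.0234) and was at 16.0, 13.7, 14.8, 12.9, 6.50 and 4.98 RPKM in the brown line and at 10.8, 11.5, 13.8, 13.95, 9.85 and 7.73 RPKM in 3T3-L1 from 0h to day 7. Sp2 fell at 4h (-1.04 ± 0.14, adjusted p = 0.0217) and at day 2 (-0.72 ± 0.14, adjusted p = 0.0149). Its 4h call ended without the 0h or 4h library of either line. Klf8 reached 1 RPKM in brown 0h and 1h alone, so no test between the lines is read for it. It was at 1.15 RPKM in the brown line and 0.09 RPKM in 3T3-L1 at 0h, and at 0.05 and 0.01 RPKM at day 7. Between the lines, 3 of the 8 were called as higher in the brown line, Klf8 included, and 1 as lower. This share was near the 49.9% of all tested genes called. Sp1 and Sp2 were higher in the brown line (0.58 ± 0.15, adjusted p = 0.0163, and 0.84 ± 0.08, adjusted p = 0.000250), and Sp3 was lower (-0.27 ± 0.09, adjusted p = 0.0407).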
